A study of Mus musculus with 6 samples.

Results

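The genes described here are 10 genes associated with lymphoid-primed progenitors, Flt3, Dntt, Satb1, Il7r, Ccr9, Rag1, Rag2, Notch1, Cd52 and Il12a, chosen by symbol from the 55487 genes of the deposited expression table. They were chosen with earlier results of these data known, so counts among them describe the list and are not an independent test. RNA sequencing was carried out on LSKs (Lin- Sca-1+ c-Kit+ bone marrow cells, the fraction that holds stem cells and multipotent progenitors) sorted from irradiated mice. There were 3 libraries from Tespa1+/+ littermates and 3 from Tespa1-/- mice. Tespa1 encodes a protein first described in thymocytes, and the null animals carried the tm1Smoc allele, bred for over 6 generations onto C57BL/6. Per the methods of the study, mice were male and 8 to 10 weeks old, received 5.0 Gy over the whole body, and gave LSKs on day 13. Both groups were irradiated, so no unirradiated level was at hand. The mice carried the allele throughout and not in LSKs only, since no Cre or transplantation was described for this experiment. Whether a library stands for 1 mouse or several was not given, and the p-values measure the spread between these libraries.

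Multipotent progenitors begin to transcribe lymphoid genes before they commit to a lineage. Such lymphoid-primed cells are marked by high Flt3, the receptor for FLT3 ligand, and they start to express Dntt and the Rag genes, whose products assemble antigen receptor genes, and later Il7r, through which interleukin-7 sustains early B and T cell precursors. Notch1 drives T cell fate in the thymus, Ccr9 guides precursors to it, and SATB1 organises chromatin and promotes lymphoid output from stem cells.

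Libraries held 12856630 to 30576981 counts, and 15332 genes passed the filter on low counts, all 10 of these genes among them. Tespa1 itself stood at 626, 1033 and 533 counts in Tespa1+/+ libraries and at 261, 207 and 176 in Tespa1-/- libraries, a log2 fold change of -1.23, so transcripts from the locus were still counted. Which exons the allele removes is not given in the sources used here, and these gene totals do not check it. Of the genes of the sort, Kit, which encodes c-Kit, was called lower in Tespa1-/- LSKs (log2 fold change -0.97), as was the progenitor marker Cd34 (-0.77), and Ly6a, which encodes Sca-1, was not called (-0.32). These calls depended on gene length, and with the length correction described below Ly6a was called lower (-0.65) and Kit (-0.56) and Cd34 (-0.46) were not. Fold changes across the transcriptome also ran with gene length. The median log2 fold change fell from 0.54 in the shortest of 10 length classes of tested genes to -0.56 in the longest (Spearman rho -0.62 across the 10029 genes whose mean log2 CPM exceeded 3, and genes are not independent replicates). The part of this trend in the results below was examined only through a fit with a length correction, in which the trend of each library with union exon length (the length covered by any exon of a gene) is removed.

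Lymphoid-primed genes were lower in irradiated Tespa1-/- LSKs. Of the 10 genes, 9 were called lower at an edgeR quasi-likelihood adjusted p under 0.05 and a fold over 1.5, against 19.2% of all genes tested. None was called higher, against 14.0% of all genes, and the count of genes called higher was also 0 at an unadjusted p under 0.05 and with DESeq2. Rag1 fell the most, 7.82-fold, followed by Dntt at 4.75-fold and Rag2 at 4.54-fold. The exception was Cd52, with a log2 fold change of -0.06. The median log2 fold change of the 10 genes was -1.59, beside 0 for all genes tested. In these bulk libraries, fewer cells of a type and less RNA per cell cannot be told apart.

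**Figure D1:**
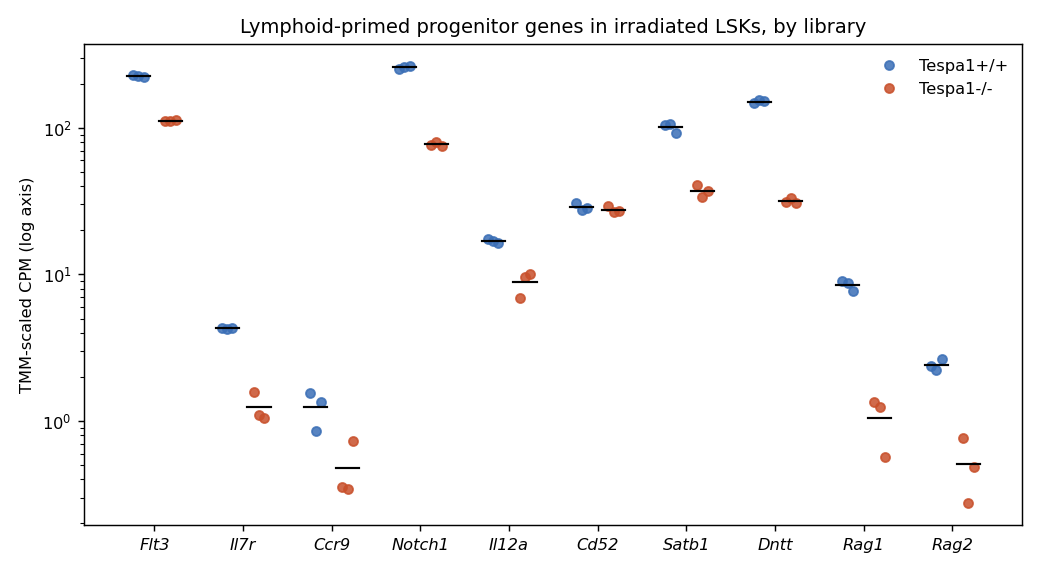
Normalised read count (TMM-scaled CPM, log axis) of each gene in the 3 Tespa1+/+ (blue) and 3 Tespa1-/- (red) libraries, with a bar at the group mean. The groups are apart for 9 genes, and for Cd52 the Tespa1-/- libraries (26.7 to 29.1 CPM) overlap the Tespa1+/+ libraries (27.3 to 30.6 CPM).

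The start regions of 6 of the genes are shown because they include the 3 largest falls (Rag1, Dntt and Rag2) and the receptors Flt3, Il7r and Notch1. Each window runs from 250 bases before to 50 bases after a RefSeq transcription start on GRCm38.p6, 5′ to 3′ in the direction of the gene, and capitals mark matches on either strand to 6 short motifs that the next paragraph spells out.
Flt3 (chr5:147400440-147400739, minus strand): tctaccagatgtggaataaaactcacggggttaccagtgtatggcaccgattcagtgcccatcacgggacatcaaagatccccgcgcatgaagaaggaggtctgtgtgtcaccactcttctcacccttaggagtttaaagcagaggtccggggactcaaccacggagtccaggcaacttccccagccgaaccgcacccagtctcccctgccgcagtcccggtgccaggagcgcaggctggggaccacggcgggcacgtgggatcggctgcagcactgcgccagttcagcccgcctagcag
Dntt (chr19:41029025-41029324, plus strand): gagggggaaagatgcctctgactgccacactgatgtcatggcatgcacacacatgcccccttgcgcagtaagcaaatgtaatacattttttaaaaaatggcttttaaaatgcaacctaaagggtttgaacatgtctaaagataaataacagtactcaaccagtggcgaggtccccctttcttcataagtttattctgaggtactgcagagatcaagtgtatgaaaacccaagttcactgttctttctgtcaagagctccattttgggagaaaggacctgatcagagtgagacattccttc
Rag1 (chr2:101649483-101649782, minus strand): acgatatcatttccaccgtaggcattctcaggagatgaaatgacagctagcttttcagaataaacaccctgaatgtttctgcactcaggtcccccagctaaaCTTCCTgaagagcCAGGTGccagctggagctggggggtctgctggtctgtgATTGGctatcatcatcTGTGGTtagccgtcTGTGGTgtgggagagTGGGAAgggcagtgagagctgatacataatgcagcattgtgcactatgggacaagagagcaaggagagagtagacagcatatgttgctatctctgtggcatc
Rag2 (chr2:101624462-101624761, plus strand): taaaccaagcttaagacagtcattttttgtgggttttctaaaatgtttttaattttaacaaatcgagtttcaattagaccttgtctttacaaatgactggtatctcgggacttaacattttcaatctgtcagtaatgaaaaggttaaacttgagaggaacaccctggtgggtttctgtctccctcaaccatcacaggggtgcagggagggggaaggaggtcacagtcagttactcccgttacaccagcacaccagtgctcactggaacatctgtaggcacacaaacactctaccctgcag
Il7r (chr15:9529827-9530126, minus strand): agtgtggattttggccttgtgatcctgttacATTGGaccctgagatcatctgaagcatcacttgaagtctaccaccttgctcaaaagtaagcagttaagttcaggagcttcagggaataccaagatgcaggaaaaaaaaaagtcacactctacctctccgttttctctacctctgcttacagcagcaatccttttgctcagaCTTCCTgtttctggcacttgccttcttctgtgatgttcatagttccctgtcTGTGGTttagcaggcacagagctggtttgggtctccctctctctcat
Notch1 (chr2:26503773-26504072, minus strand): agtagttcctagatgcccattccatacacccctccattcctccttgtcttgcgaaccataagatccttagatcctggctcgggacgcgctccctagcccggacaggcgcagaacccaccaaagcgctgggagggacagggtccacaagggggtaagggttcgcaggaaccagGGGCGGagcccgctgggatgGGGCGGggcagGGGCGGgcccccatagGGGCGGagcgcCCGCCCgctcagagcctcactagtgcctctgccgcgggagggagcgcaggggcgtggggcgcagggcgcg

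Of the 10 genes, 9 matched a RefSeq window, with 14 windows in all because Satb1 has 5 and Il12a has 2. The motifs searched were CAGGTG (an E-box bound by E proteins, held by 20.2% of all 32851 windows), TGTGGT (RUNX, 16.8%), TGGGAA (a core shared by Ikaros and RBPJ, 25.6%), AGGAAG (ETS family, 35.4%), CCAAT (the NF-Y box, 37.4%) and GGGCGG (GC box, 35.7%). The Rag1 window held 5 of the 6, with TGTGGT at -81 and -67 relative to the RefSeq start. For Rag1 and Il7r the bases after that start were not found in a GENCODE transcript of the gene. Positions in these windows therefore hold for the RefSeq start only. The Notch1 window held GGGCGG 5 times and none of the others. The Flt3, Dntt and Rag2 windows held no match. The windows of Dntt, Rag1, Rag2, Il7r and Ccr9 were poor in CpG, with observed over expected ratios of 0.15, 0.16, 0.22, 0.06 and 0.2 beside a median of 0.38 over all windows, whereas those of Flt3 and Notch1 stood at 0.65 and 0.66. The genes with several windows were mixed, with ratios from 0.13 to 1.06 over the 5 of Satb1 and of 0.15 and 0.68 for Il12a. A match to so short a motif is a description of the letters and not a binding site.

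Flt3, the receptor tyrosine kinase that marks lymphoid-primed cells, was counted at 228, 226 and 223 CPM in Tespa1+/+ libraries and at 112, 112 and 113 CPM in Tespa1-/- libraries. The groups lay far apart, with SDs of 2.74 and 0.708 CPM (n = 3 each). The coefficients of variation, 1.22% and 0.631%, were below those of counting error alone (1.43% and 2.47%), so these SDs may understate the spread. The log2 fold change was -1.01 ± 0.029 (SE, adjusted p = 1e-06 by edgeR quasi-likelihood). Flt3 lies on chromosome 5 (GRCm38, 147330741 to 147400489, minus strand) and shares no exon base with another annotated gene.

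Il7r, the alpha chain of the interleukin-7 receptor, was a low-count gene, with 78, 134 and 64 counts in Tespa1+/+ libraries and 27, 16 and 13 in Tespa1-/- libraries. Scaled to library size this was 4.29, 4.24 and 4.32 CPM against 1.59, 1.1 and 1.05 CPM, and the groups did not overlap. In Tespa1+/+ libraries the coefficient of variation of Il7r, 0.879%, was below the 10.4% of counting error alone, so its SD may understate the spread. The log2 fold change was -1.75 ± 0.175 (SE, adjusted p = 0.00011 by edgeR quasi-likelihood). Of the ligands and signalling partners of these receptors, a list of 11 genes of which 10 were tested, 2 were called lower and 1 higher, near the shares over all genes (19.2% and 14.0%), and with the length correction 1 was called lower and 1 higher. The former were Flt3l, encoding FLT3 ligand (-0.63 on the log2 scale), and Stat5b, which acts downstream of cytokine receptors (-0.6). Tslp, encoding a cytokine that also signals through the IL-7 receptor alpha chain, was called higher (0.89), from a mean of 1.63 CPM to 2.97 CPM. Its mean count was 39.2, and it was named after its value was seen.

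Ccr9, the receptor for the thymic chemokine CCL25, gave the least certain call. Tespa1+/+ libraries held 28, 27 and 20 counts and Tespa1-/- libraries held 6, 5 and 9. The lowest Tespa1+/+ value, 0.855 CPM, was close to the highest Tespa1-/- value, 0.726 CPM, and the log2 fold change of -1.38 had a 95% interval from -2.31 to -0.45 (edgeR quasi-likelihood adjusted p = 0.018). Without Tespa1+/+ replicate 1 the edgeR adjusted p rose to 0.053, without Tespa1-/- replicate 1 to 0.068, and without Tespa1-/- replicate 2 to 0.064. With the length correction the log2 fold change was -0.91 and the call was lost (edgeR adjusted p = 0.09). An opposite-strand transcript, AC165425.1, covers 18.8% of the exonic bases of Ccr9, and whether counting used the strand was not given in the sources used here.

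Notch1, the receptor that directs progenitors to the T lineage, stood at 254, 261 and 265 CPM in Tespa1+/+ LSKs. In Tespa1-/- LSKs it stood at 77.0, 80.5 and 75.2 CPM. The log2 fold change was -1.74 ± 0.0383 (SE, adjusted p = 4.1e-07 by edgeR quasi-likelihood), and the groups were separated by a gap many times their SDs of 5.56 and 2.69 CPM. Notch1 has a union exon length of 14232 bases, in the longest of the 10 length classes, and its log2 fold change with the length correction was -1.12. Opposite-strand transcripts 0610009E02Rik and Gm13568 share 7.5% and 2.9% of its exonic bases.

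Other genes of the Notch pathway moved in part with Notch1. Of a list of 33 genes, 26 were tested. Of these, 10 were called lower and none higher, beside 19.2% and 14.0% of all genes tested, and 16 were neither. The median log2 fold change was -0.38. The genes called lower included Maml2, a co-activator of Notch (-2.51 on the log2 scale), Gata3, a T lineage factor (-1.94), Jag2, a ligand (-1.84), and the receptor Notch2 (-1.47). The length-corrected fit called 9 lower and 1 higher, beside 15.4% and 8.25% of all genes, with a median of -0.19. Ncstn, which encodes a part of the enzyme complex that cleaves Notch receptors, had a log2 fold change of -0.06 and was not called, and was picked as an example after its value was seen.

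Dntt, encoding the terminal transferase that adds untemplated nucleotides at antigen receptor joints, had the highest level per length of the 10 genes in Tespa1+/+ LSKs. Its CPM values were 147, 154 and 152 in Tespa1+/+ libraries and 31.4, 33.4 and 30.6 in Tespa1-/- libraries. The groups did not overlap, and the log2 fold change was -2.25 ± 0.0466 (SE, adjusted p = 3.3e-07 by edgeR quasi-likelihood). The Dntt exons, 2292 bases in all, belong to a length class whose median log2 fold change was 0.19, and with the length correction its own was -2.41.

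Rag1 and Rag2 encode the recombinase that cuts antigen receptor genes, and they lie 5752 bases apart on chromosome 2 in convergent orientation. Rag1 was counted at 164, 274 and 115 in Tespa1+/+ libraries and at 23, 18 and 7 in Tespa1-/- libraries, or 9.03, 8.68 and 7.76 CPM against 1.35, 1.24 and 0.565 CPM. Rag2 was counted at 43, 70 and 39 against 13, 4 and 6, or 2.37, 2.22 and 2.63 CPM against 0.763, 0.276 and 0.484 CPM. Neither gene overlapped between the groups. The log2 fold change of Rag1 was -2.97 with a 95% interval from -3.51 to -2.42 (edgeR quasi-likelihood adjusted p = 3.3e-05), and that of Rag2 was -2.18 with an interval from -2.89 to -1.48 (edgeR quasi-likelihood adjusted p = 0.00055). The intervals overlapped, and a difference between the falls of these 2 genes was not tested. In Tespa1-/- libraries the coefficient of variation of Rag2 was 48.2%, beside 36.1% from counting error alone. That of Rag1 was 40.5%, beside 25%, so the levels of both genes there are known only roughly. The next tested gene beyond Rag1, Traf6, a signalling adaptor, had a log2 fold change of -0.55 (edgeR quasi-likelihood adjusted p = 2.9e-05). Traf6 was not called because it fell short of the fold of 1.5, and it was singled out after its value was seen. B230118H07Rik, on the opposite strand of Rag2, shares 6.1% of the Rag2 exonic bases.

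The recombinase acts with cofactors and with the end joining machinery. Of 12 such genes, 3 were called lower, 1 higher and 8 neither, with a median log2 fold change of 0.03, and these counts were close to the shares over all genes (19.2% lower and 14.0% higher). Those lower were the damage kinase genes Atm (-1.74) and Prkdc (-1.06) and the nuclease gene Dclre1c (-0.78, on the log2 scale), and Hmgb2, encoding a DNA-bending cofactor, was higher (0.6). In the length-corrected fit 1 of the 12 was called lower and none higher. Atm and Prkdc kept negative values in that fit, -1.26 and -0.47.

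Satb1, encoding the chromatin organiser, was measured at 105, 106 and 92.8 CPM in Tespa1+/+ libraries and 40.8, 33.8 and 37.3 CPM in Tespa1-/- libraries. The groups were well apart, with a log2 fold change of -1.44 ± 0.083 (SE, adjusted p = 8.4e-06 by edgeR quasi-likelihood). Satb1 has the longest union exon length of the 10 genes, 19027 bases, and its log2 fold change with the length correction was -0.69 and still called (edgeR adjusted p = 0.00033). Of 22 other transcription factor genes of lymphoid and multipotent progenitors, 6 were called lower and 1 higher, beside 19.2% and 14.0% of all genes, with a median log2 fold change of -0.44. The lower ones included Ikzf1, encoding Ikaros (-1.44 on the log2 scale), Mef2c, which promotes lymphoid fate (-1.41), Meis1, a stem cell factor (-1.29), and Zfp521 (-1.2). Spi1, encoding the myeloid and lymphoid factor PU.1, was higher (0.67). With the length correction 4 were called lower, beside 15.4% of all genes, and none higher, with a median of 0, so that the list was close to all genes.

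Il12a encodes the p35 subunit shared by interleukin-12 and interleukin-35. It was counted at 17.4, 17.0 and 16.4 CPM in Tespa1+/+ libraries and at 6.87, 9.58 and 10.1 CPM in Tespa1-/- libraries, again without overlap. The log2 fold change was -0.95 ± 0.142 (SE, adjusted p = 0.00088 by edgeR quasi-likelihood). Of 7 other genes of the family and its receptors, 4 were tested. Of these, 2 were called lower and none higher, beside 19.2% and 14.0% of all genes tested. The lower ones were Il12rb2 (-1.64 on the log2 scale) and Il12rb1 (-0.59), the chains of the interleukin-12 receptor. The other tested genes, Ebi3 (-0.25) and Il27 (0.01), were not called. With the length correction 2 were again called lower and none higher, beside 15.4% and 8.25% of all genes. These 2 were Il12rb2 (-1.62) and Ebi3 (-0.6), and Il12rb1 (-0.54) then fell short of the fold. Il12b, which encodes the p40 partner of p35, had at most 4 counts in any library.

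Cd52, encoding a small surface glycoprotein of lymphocytes and other leukocytes, was the only one of the 10 that was not called. It was measured at 30.6, 27.3 and 28.2 CPM in Tespa1+/+ libraries and at 29.1, 26.7 and 26.9 CPM in Tespa1-/- libraries. The groups overlapped, and the 95% interval of the log2 fold change ran from -0.22 to 0.11 (edgeR quasi-likelihood adjusted p = 0.51). Cd52 is also the shortest of the 10, with 1187 exonic bases, in a length class whose median log2 fold change was 0.41. With the length correction its log2 fold change was -0.39 (edgeR adjusted p = 0.0021), which stayed under the fold of 1.5. The opposite-strand gene Crybg2 shares 14.5% of its exonic bases.

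**Figure D2:**
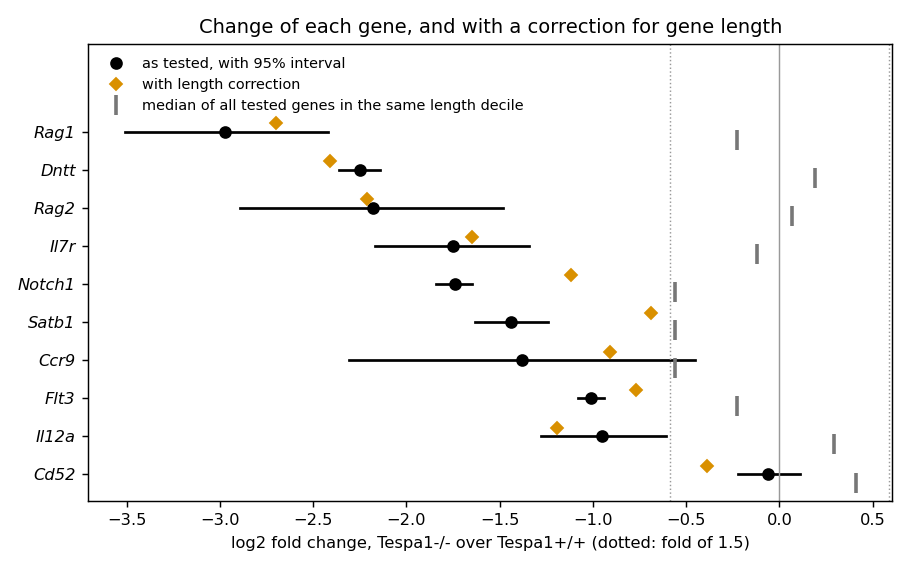
Log2 fold change of each gene (Tespa1-/- over Tespa1+/+) with its 95% interval (black), the value with the length correction (orange) and the median of all tested genes in the same length class (grey). All genes except Cd52 lie below the dotted line of a 1.5-fold fall before the correction, and Satb1 and Notch1 move most with it, from -1.44 to -0.69 and from -1.74 to -1.12.

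In the length-corrected fit 8 of the 10 genes were called lower, beside 15.4% of all genes tested, and 0 higher, beside 8.25%, and the median log2 fold change was -1.16 beside 0.02. The 4 genes with a median class change above 0 (Dntt, Rag2, Cd52 and Il12a) went lower still under the correction, and the other 6 moved toward 0. Without any test, 8 of the 10 genes had a log2 fold change below -1, against 10.6% of all genes tested, and 9 had groups that did not overlap, lower in Tespa1-/- LSKs, against 34.6%, and none of the 10 was apart in the other direction, against 34.5%.

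**Figure D3:**
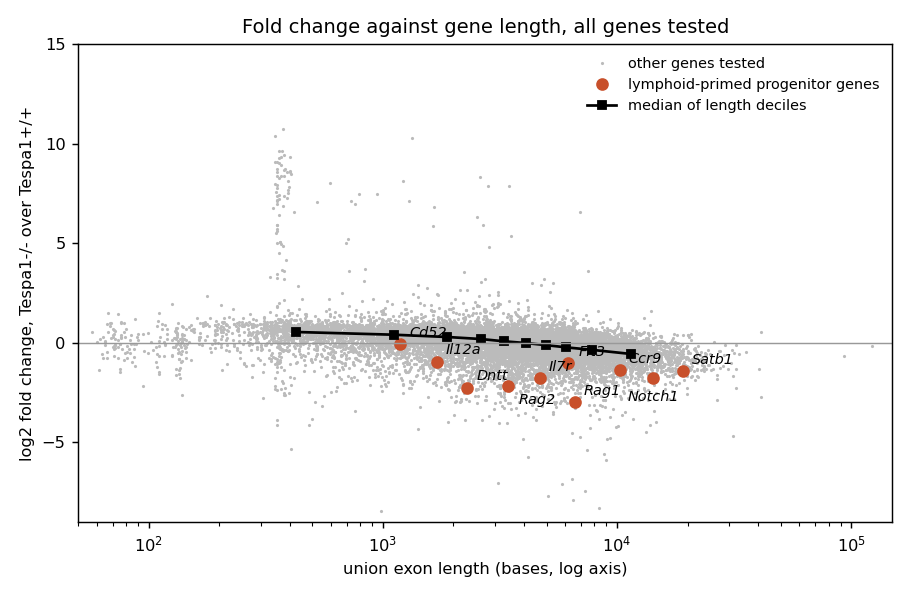
Log2 fold change (Tespa1-/- over Tespa1+/+) against union exon length (log axis) for all genes tested (grey) with the 10 genes in red, and the medians of 10 length classes in black. Every one of the 10 genes lies below the line of class medians, whose values run from 0.54 to -0.56, and Rag1, Dntt and Rag2 lie furthest below it.

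Because the genes fell by different amounts, their order by level changed. By deposited FPKM, which is per length, the order in Tespa1+/+ LSKs was Dntt (48.0 ± 1.09), Flt3 (37.8 ± 0.491), Cd52 (21.2 ± 1.28), Notch1 (17.0 ± 0.346), Il12a (4.18 ± 0.135), Satb1 (3.16 ± 0.227), Rag1 (1.33 ± 0.104), Il7r (0.846 ± 0.00802), Rag2 (0.471 ± 0.0411) and Ccr9 (0.057 ± 0.0162), as mean ± SD with n = 3. No neighbours in that order overlapped. In Tespa1-/- LSKs, Cd52 came first (19.0 ± 0.889), followed by Flt3 (17.5 ± 0.118) and Dntt (9.43 ± 0.432), and Il7r stood above Rag1, although the values of Il7r and Rag1, and those of Rag1 and Rag2, overlapped. CPM per kilobase of union exons gave the same order in each group. The lengths behind the FPKM values differ from the union exon lengths for most of these genes, and FPKM totals differed between the groups, so FPKM levels are compared within a group only.

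Each gene was also expressed relative to Flt3 in the same library, without a correction for length. Dntt was 122%, 129% and 130% of Flt3 FPKM in Tespa1+/+ libraries and 53.4%, 56.7% and 51.5% in Tespa1-/- libraries. Rag1 went from a mean of 3.51% to 0.878%, and Notch1 from 44.9% to 27.0%. Rag2, Il7r and Satb1 were likewise lower relative to Flt3 in every Tespa1-/- library, with log2 changes of the ratio of -1.35, -0.8 and -0.43. For Satb1 and Il12a the order against Flt3 depended on gene length, since with the length correction the log2 fold change of Satb1 (-0.69) was smaller in size than that of Flt3 (-0.77), and that of Il12a (-1.19) was larger. Cd52 rose relative to Flt3 without overlap, from 56.1% to 109%, whereas Il12a (11% and 11.6%) and Ccr9 (0.151% and 0.115%) overlapped between the groups. With 3 libraries against 3 the two-sided exact permutation test cannot go below p = 0.1, which the 7 non-overlapping ratios reached (0.129 after Benjamini-Hochberg adjustment over 9 ratios), and for Il12a and Ccr9 the exact permutation p was 1 and 0.3.

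**Figure D4:**
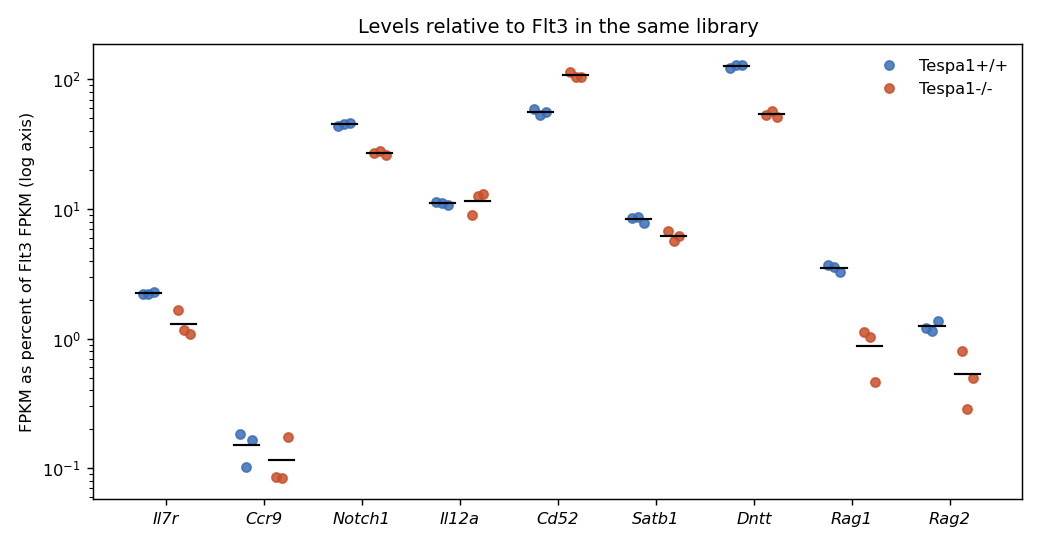
FPKM of each gene as a percent of Flt3 FPKM in the same library (log axis), for Tespa1+/+ (blue) and Tespa1-/- (red) libraries, with a bar at the group mean. Dntt, Rag1, Rag2, Notch1, Il7r and Satb1 lie lower in Tespa1-/- libraries, Cd52 lies higher (56.1% to 109%), and Il12a and Ccr9 overlap.

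The genes next to these on the chromosome were called at about the shares of all genes. Of 18 tested genes that lie next to one of the 10 on either side and are not among them, 3 were called lower, 2 higher and 13 neither, beside 19.2% and 14.0% of all genes tested. The lower ones were Blnk (-1.61 on the log2 scale), 34739 bases from Dntt and itself a B cell adaptor gene, Fyco1 (-1.8), 5169 bases from Ccr9, and Gm10800 (-1.84), 2957416 bases from Rag2. Polr1d beside Flt3 and Lin28a beside Cd52 were called higher (0.6 and 1.18). A list of 11 further lymphoid-priming genes gave 3 called lower, also near the share of all genes, and none higher, with a median log2 fold change of -0.37, the 3 being Blnk, Ltb, a lymphotoxin gene (-0.86), and Lax1, an adaptor gene (-0.85). After the length correction 5 of these 11 were called lower, above the 15.4% of all genes, and none higher, with a median log2 fold change of -0.7.

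Markers of other cell types moved alongside, and over all genes tested 19.2% were called lower and 14.0% higher. Of 8 B cell markers, 7 were tested and 5 called lower, and the summed level of the list went from 54.7 to 60 CPM in Tespa1+/+ libraries to 40.6 to 43.9 CPM in Tespa1-/- libraries. Cd79b, the largest part of that sum, was not called and went the other way, from a mean of 22.7 CPM to 27.3 CPM (log2 fold change 0.27). Of 8 T cell markers, 4 were tested and 3 called lower, and the sum of the list ran from 16.2 to 17.8 CPM against 8.63 to 9.86 CPM. Cd3e, under the filter, had 8, 7 and 4 counts against 0 in every Tespa1-/- library. The other CD3 chain genes on the list, also under the filter, did not follow it. Cd3d had 4, 4 and 0 counts against 1, 2 and 4, and Cd3g had 0, 5 and 0 against 4, 3 and 0. All 5 tested of 7 dendritic cell markers were called lower, with sums of 190 to 292 against 108 to 203 CPM, Cd209a at 0 throughout, and Siglech, which was under the filter, at 10, 7 and 6 counts against 17, 8 and 13. These sums overlapped between the groups, and Irf8 made up most of them, with means of 233 and 129 CPM. The groups of Irf8 overlapped too, and its call (log2 fold change -0.86) was lost with the length correction (-0.56). Of 8 stem cell markers, 7 were called lower and none higher (median log2 fold change -1.41, sums of 129 to 139 against 50.7 to 55.9 CPM). Of 7 neutrophil markers, 6 were tested and 5 called higher, with S100a8 up from 2.74 to 88.4 CPM. The sum of all 7 went from 33.7 to 35.7 CPM in Tespa1+/+ libraries to 361 to 373 CPM in Tespa1-/- libraries. Itgam, tested and not called, made up most of the Tespa1+/+ sum. It went from a mean of 30.3 CPM to 20.7 CPM (log2 fold change -0.57). Length-corrected calls were 6 B cell, 3 T cell, 4 dendritic cell and 7 stem cell markers lower, beside 15.4% of all genes. With that correction 5 neutrophil markers were called higher, beside 8.25%. Cd79b, Cd3d, Cd3g, Irf8 and Itgam were named after their values were seen. The part of these cell types in the lower lymphoid-primed genes was not tested.

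**Figure D5:**
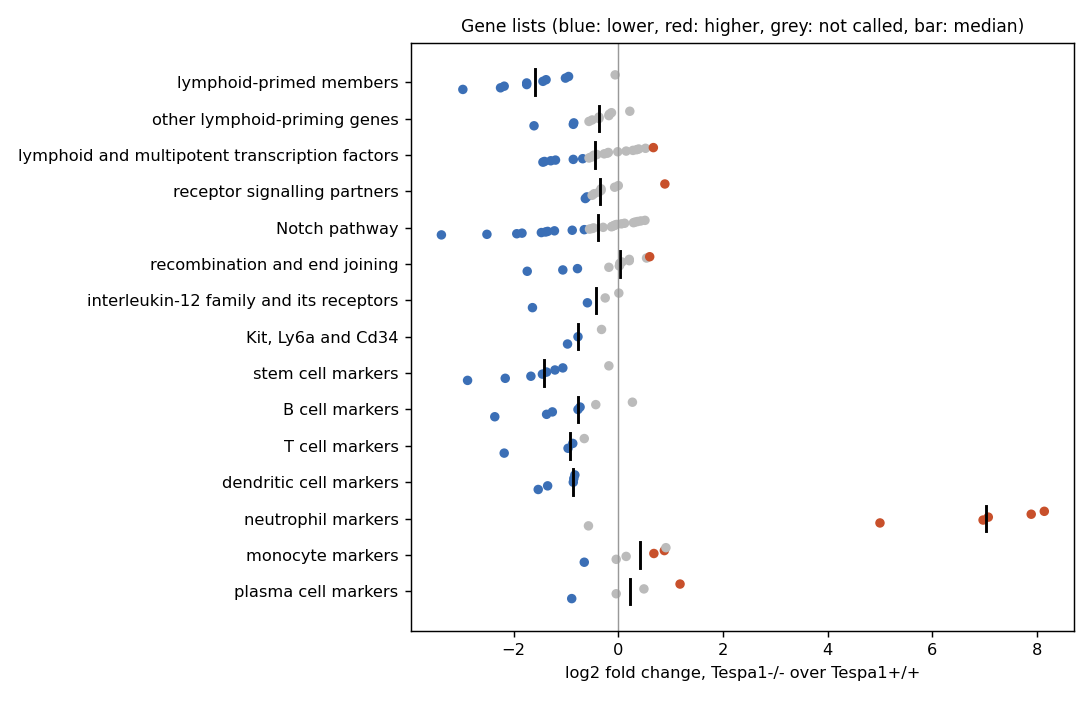
Log2 fold change (Tespa1-/- over Tespa1+/+) of every tested gene in each list, coloured by its call, with a bar at the list median. The lymphoid-primed genes have a median of -1.59 and the stem cell markers one of -1.41, an order that turns with the length correction (-1.16 and -1.23), and 5 of the 6 tested neutrophil markers lie to the right.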

How the data were processed

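RNA of LSKs from irradiated Tespa1+/+ and Tespa1-/- mice (3 libraries each) was made into stranded poly-A libraries and sequenced. The submitters' processing notes name CASAVA 1.8, HISAT2, StringTie, edgeR and GRCm38, without the counting tool or its strand setting. The authors deposited, per gene and library, raw counts (whole numbers, not normalised) and FPKM (counts scaled by 1 gene length and the library total). Groups and replicate numbers came from the sample titles.

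The quasi-likelihood F-test of edgeR 4.0.16 (R 4.3.3) was run on the deposited counts after filterByExpr, using TMM scaling and no covariates, and p-values were adjusted by Benjamini-Hochberg across all 15332 genes that passed. A call needed a fold over 1.5 and an adjusted p under 0.05. CPM values are TMM-scaled, and fold changes are Tespa1-/- over Tespa1+/+. Positions and exon lengths are from GENCODE on GRCm38, in which 55227 genes of the table were found, and promoter windows are from RefSeq. Ratios to Flt3 used deposited FPKM and an exact permutation test. The alternatives were RLE factors, total counts, other filters, DESeq2 1.42.0, glmTreat, unadjusted p, leaving out each library, a replicate block, limma-trend (limma 3.58.1) on log2 FPKM with a pseudocount of 1 or 0.1 (FPKM reaching 1 in 3 or more libraries, or unfiltered), and a length correction (loess, span 0.5, as an edgeR offset). The scripts were tested on simulated counts.

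The 10 genes and the lists were chosen with earlier results of these data known. Named from each list were up to 4 genes called without overlap with a mean count of at least 50, by size of change, and fixed cell type markers, of which 1 is not reported here. Neighbours were named where called, as were the 5 genes most like the 10 in profile. No list test was made. Counting error at this depth is small for abundant genes and large for Ccr9, Rag2, Rag1 and Il7r in Tespa1-/- libraries (38.7%, 36.1%, 25% and 23.1%). The sources used here name no molecular identifiers, so reads may not be independent molecules and intervals from counting cover counting error only.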

Additional observations from a re-analysis of the deposited data

How the results depend on the processing

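Of the 10 genes, all but Ccr9 and Cd52 kept their direction and their side of the adjusted p of 0.05 in every alternative that gave a value, and no value reversed. The number called lower was 8 to 9 when a library was left out, 9 with RLE factors, total counts, no filter, DESeq2 or an unadjusted p, and 8 with glmTreat or the length correction. It was 6 of 7 tested with at least 10 counts in every library or with filtered FPKM, where the low-count genes were not tested, and 7 with unfiltered FPKM, where Rag2 (-0.43 on the log2(FPKM + 1) scale, limma adjusted p = 0.00093) fell short of the fold. Ccr9 lost its call in 7 of 16 alternatives, including glmTreat (edgeR adjusted p = 0.11), unfiltered FPKM (limma adjusted p = 0.094) and the length correction (log2 fold change -0.91), with log2 fold changes from -1.77 to -0.05. Cd52 passed the adjusted p in both fits with the length correction (-0.39 in each) but not the fold. The cause of these changes was not tested.

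Over all genes, 2951 were called lower and 2148 higher. Counts moved by over 1.5 times with glmTreat (1807 lower, 1020 higher), log2(FPKM + 1) (1626 and 1070), the same without a filter (1716 and 1090), log2(FPKM + 0.1) (1365 higher) and the length correction (1265 higher, or 1255 with the replicate block too). Leaving out a library gave 2716 to 2885 lower and 2078 to 2246 higher. Total counts without factors gave 3516 lower and 1491 higher, with the median of all genes shifted by -0.1 on the log2 scale. Of 532 counts recomputed for the lists, 459 stayed within 1.5 times and 73 did not.

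Same-numbered libraries of the groups deviated together only weakly (correlations of 0.046, 0.011 and 0.06), so the numbers were not taken to pair them. With the replicate block 2871 genes were called lower and 2101 higher, the same number of the 10 genes (9) was lower, and no call among them changed.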

Other observations

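The genes whose profile over the 6 libraries was most like the mean standardised log2 CPM of the 10 genes, outside the lists and with a mean count of at least 100, were Xpo4, an exportin gene (Pearson r = 0.9999), Apcdd1, which encodes an inhibitor of Wnt signalling (0.9998), Exd2, an exonuclease gene (0.9996), Hace1, a ubiquitin ligase gene (0.9996), and the nuclear noncoding RNA Malat1 (0.9994). Their log2 fold changes were -0.69, -2.79, -0.75, -0.74 and -0.42. The libraries form 2 groups, so a likeness of this kind is common, and 2101 of the 10723 genes compared had an r over 0.95.

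Among the remaining marker lists, the monocyte markers gave 1 gene called lower, Csf1r, the receptor for macrophage colony-stimulating factor (-0.65 on the log2 scale), and 2 called higher of 6 tested, Ly6c2 (0.88) and Cd14 (0.68). Of 4 tested plasma cell markers, Jchain was higher (1.18) and Sdc1 lower (-0.89). Over all genes tested, 19.2% were called lower and 14.0% higher. With the length correction Ly6c2 (0.77) was the only monocyte marker called. Csf1r (-0.45) and Cd14 (0.44) then fell short of the fold, while Jchain (1.05) and Sdc1 (-0.87) kept their calls. The length-corrected shares of all genes were 15.4% lower and 8.25% higher.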
